A study of Mus musculus with 5 samples.

Results

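T cells among dissociated cells of the mouse dentate gyrus were taken by their marker transcripts from 2 droplet libraries. A barcode, the tag of 1 droplet, was counted as a T barcode when it held at least 500 unique molecular identifiers (UMIs, each standing for 1 captured transcript) and 300 genes and at least 2 of Cd3e, Cd3d, Cd3g, Trac and Trbc2, 1 of them a Cd3 gene. Cd79a, Ms4a1, Tmem119 and Cldn5, which mark B cells, microglia and endothelial cells, had to be at 0. T barcodes were thus chosen by their measured counts of these genes, whose levels are given below as a description. The rule found 438 T barcodes among 59960 barcodes of that depth, 165 in the CFC-14d library and 273 in the Random-14d library. The whole series holds 95918 deposited barcodes.

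T cells recognise antigens through a receptor of paired chains, alpha with beta or gamma with delta, that signals through the CD3 subunits. Receptors of alpha with beta chains mostly recognise peptides on MHC molecules. CD8 T cells can kill target cells with granzymes and perforin and release chemokines, while CD4 T cells mainly direct other cells through cytokines. In the healthy mouse brain T cells are scarce and lie mostly in the meninges, the choroid plexus and the blood vessels, with a small resident CD8 population in the tissue.

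The CFC-14d library was made from 10 mice taken 14 days after CFC training (contextual fear conditioning, in which shocks are tied to a place) and the Random-14d library from 10 mice given random foot shocks, also 14 days before. Both groups carry the genotype tag WT, and their dentate gyrus was dissociated with collagenase and cleared of red cells by lysis. Strain, age, sex and whether blood was flushed from the vessels are not given in the sources used here, so T cells of the blood, the choroid plexus and the tissue cannot be told apart. The other 3 libraries hold nuclei and were not used. Each group is 1 library, so that group and library cannot be told apart, and no test between groups is possible. The 95% intervals given with the values take in the error of counting alone.

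The libraries held 31150 barcodes of sufficient depth in CFC-14d and 28810 in Random-14d. T barcodes of the CFC-14d library held 567159 UMIs, from 666 to 64997 per barcode with a median of 2375. T barcodes of the Random-14d library held 848601, from 668 to 57524 with a median of 2156. RNA of other cells was present in both sets of T barcodes. Ttr, the choroid plexus transport protein transthyretin, took 11.2% of the UMIs of CFC-14d T barcodes and 11.02% of those of Random-14d ones, against 21.6% and 21.3% in all other barcodes. Haemoglobin took 3.59% and 3.03% in T barcodes and 4.12% and 7.79% in the others, so the Random-14d library held more red cell RNA outside the T barcodes. Barcodes with 5 or more UMIs of a gene of another lineage, such as choroid plexus Folr1, microglial C1qa or myeloid Lyz2, numbered 34 in CFC-14d and 42 in Random-14d and held 40.0% and 38.2% of the T barcode UMIs. The deepest T barcode alone held 11.5% of them in CFC-14d and 6.78% in Random-14d. The libraries shared 282 barcode sequences, 2 of them T barcodes of CFC-14d and 5 T barcodes of Random-14d, and none a T barcode in both.

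Genes that the rule did not use went with the label, apart from some shared with NK or B cells. Themis, a signalling protein of the T lineage, stood at 134 CPM (the gene's UMIs scaled to a common total of UMIs) in CFC-14d T barcodes and 114 CPM in Random-14d ones and had 0 counts in the NK and B barcodes of both libraries. NK and B barcodes were taken by the same kind of rule, with the Cd3 genes at 0. Bcl11b, the factor that keeps T cells in their lineage, reached 183 CPM in CFC-14d and 173 CPM in Random-14d T barcodes, against 9.37 and 3.63 CPM in NK barcodes and 0 in B barcodes. Il7r, the receptor of the survival cytokine IL-7, reached 400.2 CPM in CFC-14d and 427 CPM in Random-14d T barcodes, against 37.5 and 18.2 CPM in NK barcodes. Cd5, an inhibitor of receptor signals, reached 72.3 CPM in CFC-14d and 101 CPM in Random-14d T barcodes and 0 in NK barcodes. Skap1, Lck and Cd2 are shared with NK cells and were high in both classes: Skap1 stood at 460.2 and 441 CPM in CFC-14d and Random-14d T barcodes and at 262 and 338 CPM in NK barcodes. With each barcode cut at random to 1000 UMIs, Cd2 was also found in 22.4% of CFC-14d and 26.8% of Random-14d B barcodes. In T barcodes those shares were 20.5% and 23.6%. All 17 genes of a T cell identity list had counts in T barcodes of both libraries, and their summed level was 2973 CPM in CFC-14d and 2970 CPM in Random-14d, against 35.9 and 39.1 CPM in all other barcodes. Most of those others are not lymphocytes. In NK barcodes the sum was much closer, at 1003 CPM in CFC-14d and 1478 CPM in Random-14d, and in B barcodes it was 219 and 282 CPM.

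**Figure D1:**
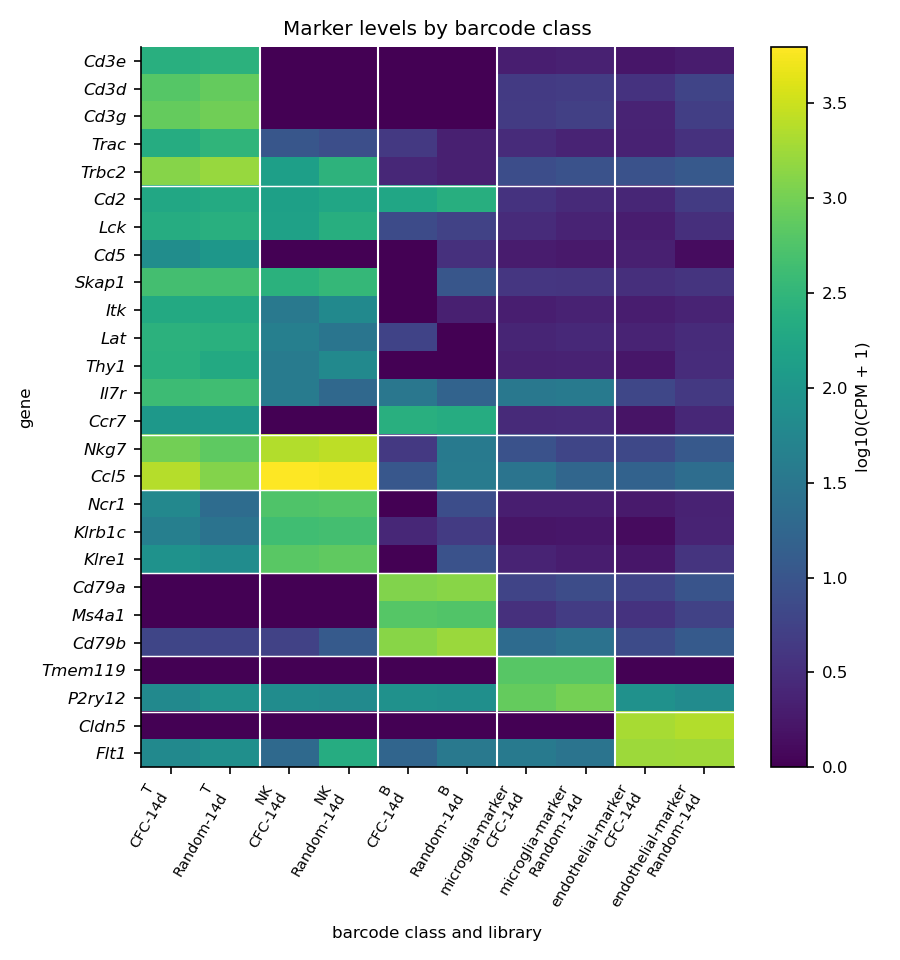
Level of 26 marker genes (rows) in 5 barcode classes of each library (columns), as log10 of CPM plus 1, with white lines between classes and gene groups. The Cd3 genes, Lat and Thy1 are bright in the T columns, Nkg7 and Ccl5 are brighter still in the NK columns, and the genes set to 0 by the rule are dark.

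Markers of other lineages not used by the rule ran as follows in T barcodes. The 6 NK markers summed to 247 CPM in CFC-14d and 170 CPM in Random-14d, against 2910 and 3229 CPM in NK barcodes. The 4 unused B markers summed to 26.4 and 20.0 CPM, with the B lineage factor Pax5 at 0 in both libraries. The 4 neutrophil markers summed to 372 CPM in CFC-14d and 37.7 CPM in Random-14d, with Ly6g at 0 in both and 93.8% of the S100a9 counts of CFC-14d in 1 barcode. The 5 monocyte markers summed to 864 CPM in CFC-14d and 572 CPM in Random-14d, above all other barcodes (418 and 356 CPM). Among them Lyz2 had 232 counts in CFC-14d, 77.6% of them in 1 barcode, and 60 in Random-14d, while Ly6c2 was lower in CFC-14d. The 9 microglial markers summed to 2687 and 2541 CPM in CFC-14d and Random-14d. That is of the order found in NK barcodes (2966 and 2626 CPM) and below all other barcodes (10463 and 11256 CPM). The part of these other lineages in the results below was not tested, except where values without the barcodes concerned are given.

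At the edge of the rule, 33 of the CFC-14d members (20.0%) and 30 of the Random-14d members (10.99%) carried exactly 2 of the 5 genes. Their summed identity genes stood at 2132 CPM in CFC-14d and 2175 CPM in Random-14d, against 3100 and 3081 CPM in members with 3 or more. NK barcodes had 1003 and 1478 CPM of these genes. Just outside it, 319 CFC-14d and 232 Random-14d barcodes carried exactly 1 of the 5 genes, at 234 and 221 CPM. A further 69 and 92 barcodes met the T genes but held an excluded gene, which was Tmem119 in 57 and 66 of them. These had a median of 3778 and 3808 UMIs, more than the members had. All 5 genes were found in 39 CFC-14d and 67 Random-14d members.

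T barcodes made up a smaller share of the CFC-14d library. They were 0.530% of its barcodes (0.452 to 0.617%), against 0.948% (0.839 to 1.07%) in Random-14d, a ratio of 0.559 and a log2 ratio of -0.84 (-1.13 to -0.55). The intervals of the 2 shares do not overlap. NK and B barcodes differed by much the same factor: NK barcodes made up 0.199% of CFC-14d barcodes, against 0.344% in Random-14d, and B barcodes 0.729%, against 1.34%. T barcodes were thus 36.3% of the T, NK and B barcodes together in CFC-14d and 36.02% in Random-14d, with a log2 ratio of 0.01 (-0.27 to 0.30). Against immune cells as a whole, taken as barcodes with a UMI of Ptprc (CD45), T barcodes were 1.95% in CFC-14d and 3.21% in Random-14d, a log2 ratio of -0.72 (-1.04 to -0.39). Barcodes with microglial markers, at 34.8% and 38.3%, and with endothelial markers, at 5.47% and 6.64%, were also lower in CFC-14d, by log2 ratios of -0.14 and -0.28. A share of captured barcodes is not a number of cells in the tissue, and with 1 library each the spread of such shares between preparations is unknown.

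**Figure D2:**
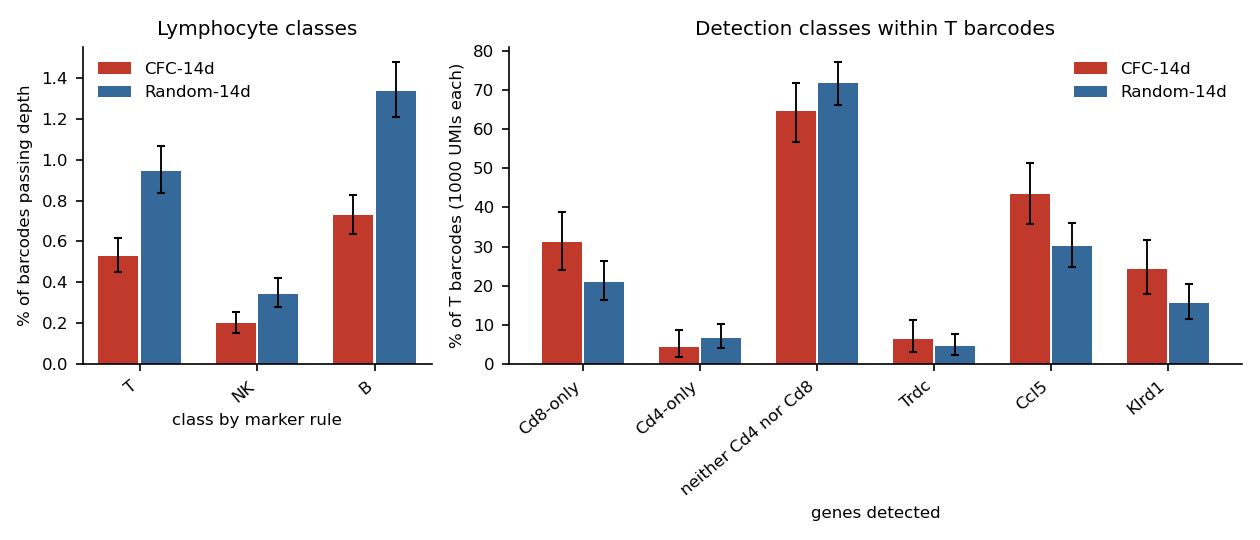
Left, T, NK and B barcodes as a percentage of barcodes of at least 500 UMIs and 300 genes. Right, T barcodes with the named genes detected after each was thinned to 1000 UMIs, as a percentage of T barcodes. CFC-14d is red and Random-14d blue, and whiskers are exact binomial 95% intervals. All 3 lymphocyte classes are lower in CFC-14d, while the Cd8-only, Ccl5 and Klrd1 bars are higher there.

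Within the T barcodes, Cd8 transcripts were found more often in CFC-14d. Each barcode was thinned to 1000 UMIs at random to even out depth, which left out 4 CFC-14d and 2 Random-14d barcodes. Cd8a or Cd8b1, the chains of the CD8 coreceptor, were then detected without Cd4 in 31.1% of CFC-14d T barcodes (24.0 to 38.8%) and 21.0% of Random-14d ones (16.3 to 26.4%). Without thinning the shares were 38.2% and 30.8%, and at 2000 UMIs, where 49 and 116 barcodes were left out, they were 36.2% and 34.4%. Each pair of intervals overlaps, and the size of the gap depends on the depth used. The same class made up 0.137% of endothelial-marker barcodes in CFC-14d and 0.0641% in Random-14d, whose median depth was 1986 and 1857 UMIs, with 242 and 355 of them too shallow to thin.

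Cd4, the coreceptor of helper cells, was detected without Cd8 in 4.35% of thinned CFC-14d T barcodes (1.77 to 8.75%) and 6.64% of Random-14d ones (3.98 to 10.3%). As summed levels, Cd8a stood at 169 CPM in CFC-14d and 121 CPM in Random-14d (log2 ratio 0.48, 0.06 to 0.90). Cd8b1 stood at 335 CPM in CFC-14d and 244 CPM in Random-14d (0.46, 0.17 to 0.75), and Cd4 at 29.97 and 46.0 CPM from only 17 and 39 counts. Foxp3, the factor of regulatory T cells, had 0 counts in CFC-14d and 2 in Random-14d, where a count of 0 allows up to 3 counts or 5.29 CPM. Most T barcodes, 64.6% in CFC-14d and 72.0% in Random-14d after thinning, showed neither coreceptor at this depth.

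Receptor constant regions split the T barcodes further. Trac, the alpha chain, was found without Trdc, the delta chain, in 72 CFC-14d (43.6%) and 154 Random-14d barcodes (56.4%). Trdc was found without Trac in 12 CFC-14d and 15 Random-14d barcodes, and both in 0 and 1. A Trgc gene, for the gamma chain, accompanied Trdc in 11 of the 12 CFC-14d barcodes with Trdc and in 12 of the 16 Random-14d ones. A Trgc gene was also found with Trac in 14 and 19 barcodes. In all it was found in 39 CFC-14d T barcodes, or 23.6% (17.4 to 30.9%), and in 38 Random-14d ones, or 13.9% (10.0 to 18.6%). None of these Trdc barcodes held a Cd4 or Cd8 transcript. No alpha or delta chain was detected in 49.1% of CFC-14d and 37.7% of Random-14d T barcodes, and Trac was 1 of the genes that chose them. Trdc barcodes carried S100a6, a calcium-binding protein of activated cells, at 3003 CPM in CFC-14d and 1630 CPM in Random-14d, against 707 and 649 CPM in all T barcodes. Cxcr6, a homing receptor of tissue T cells, stood at 769 and 535 CPM in Trdc barcodes and at 233 and 235 CPM in all T barcodes. Variable segments were hardly read by these 3' libraries: Trbv segments gave 18 counts in CFC-14d and 25 in Random-14d. Trgv segments gave 23 and 26 counts, of which Trgv2 had 19 and 14, and Trdv4 held all 6 Trdv counts of CFC-14d and 4 of the 6 of Random-14d. Trbc1 was at 448 CPM in CFC-14d and 648 CPM in Random-14d (log2 ratio -0.53, -0.75 to -0.32), but Trbc1 and Trbc2 are near-identical copies. Both were counted in 68 of the 120 CFC-14d and 128 of the 236 Random-14d barcodes with 3 or more Trbc UMIs, so their split is uncertain.

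Across the T barcodes, 1942 genes had at least 100 counts over both libraries. Of these, 33 were more than 1.5-fold higher in CFC-14d (1.7%) and 33 more than 1.5-fold lower (1.7%), together 3.4%. In all, 947 were higher and 995 lower in CFC-14d by any amount, and the median log2 ratio of all 1942 genes was -0.01. The genes named here are the 12 per direction whose 95% counting interval lay farthest from 0, among genes whose level in T barcodes was at least 0.5 times that in all others.

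The higher genes of lymphocytes were Gzma, Ccl5, Klrd1 and H2-Q6. Ccl5, a chemokine that memory and effector CD8 T cells make, had 1324 counts in CFC-14d and 1038 in Random-14d. That is 2334 CPM (2210 to 2464) in CFC-14d and 1223 CPM (1150 to 1300) in Random-14d, a log2 ratio of 0.93 (0.81 to 1.05). It was found in 81 of the 165 CFC-14d and 103 of the 273 Random-14d barcodes. Among those, a barcode held from 1 to 128 UMIs with a median of 9 in CFC-14d, against 1 to 51 with a median of 6 in Random-14d. Both the share of barcodes with Ccl5 and its median per such barcode were thus higher in CFC-14d, although the ranges overlap widely. After thinning to 1000 UMIs, Ccl5 was detected in 43.5% of CFC-14d T barcodes (35.7 to 51.5%) and 30.3% of Random-14d ones (24.8 to 36.1%), and at 2000 UMIs in 44.0% and 39.5%. In endothelial-marker barcodes the share at 1000 UMIs was 2.53% in CFC-14d and 1.03% in Random-14d. NK barcodes carried Ccl5 at 6275 CPM in CFC-14d and 5783 CPM in Random-14d, a log2 ratio of 0.12 (0.01 to 0.22), and all other barcodes held 37.6 and 27.3 CPM.

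Klrd1 encodes CD94, a receptor subunit of NK cells and effector CD8 T cells. It stood at 303 CPM (260 to 352) in CFC-14d T barcodes and 154 CPM (129 to 183) in Random-14d ones, a log2 ratio of 0.97 (0.64 to 1.31), and was found in 65 and 71 barcodes. In NK barcodes it was at 670.1 CPM in CFC-14d and 788 CPM in Random-14d, a log2 ratio of -0.23 (-0.55 to 0.08). H2-Q6, a class Ib MHC gene of the Qa region, stood at 111 CPM in CFC-14d and 58.9 CPM in Random-14d (log2 ratio 0.91, 0.36 to 1.48), and its near-identical neighbours make the count uncertain. Its neighbour H2-Q7 stood at 552 CPM in CFC-14d and 528 CPM in Random-14d, a log2 ratio of 0.06. Nkg7, a cytotoxic granule protein, was higher by less than 1.5-fold, at 966 CPM in CFC-14d and 726 CPM in Random-14d (log2 ratio 0.41, 0.24 to 0.58). It was found in 102 CFC-14d and 160 Random-14d barcodes, and after thinning in 48.4% and 45.4% of T barcodes at 1000 UMIs and in 56.03% and 55.4% at 2000, shares whose intervals overlap. In NK barcodes Nkg7 stood at 2263 and 2601 CPM, a log2 ratio of -0.20 (-0.37 to -0.03).

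**Figure D3:**
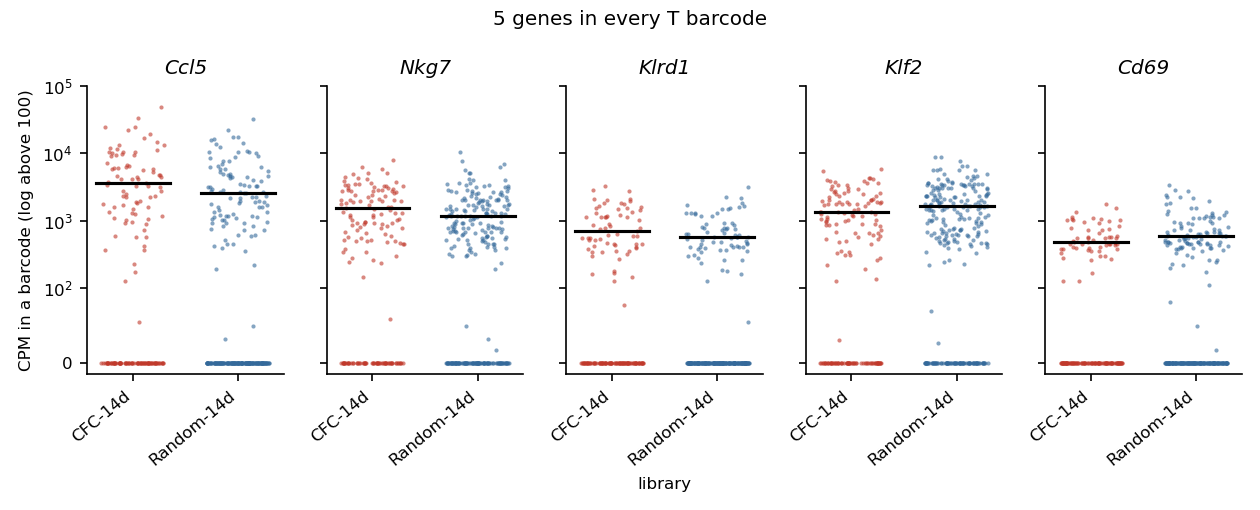
CPM of 5 genes in every T barcode of the CFC-14d (red) and Random-14d (blue) libraries, on an axis that is linear up to 100 CPM and logarithmic above it. Black lines are medians of barcodes with at least 1 UMI. The Ccl5 line lies at 3678 CPM in CFC-14d and 2597 CPM in Random-14d, and the clouds of both libraries overlap for all 5 genes.

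Gzma, granzyme A, had the highest log2 ratio, 3.33 (2.79 to 3.95), from 204 counts in CFC-14d and 30 in Random-14d, and this rested on few barcodes. In CFC-14d 8 barcodes carried 90, 63, 21, 17, 5, 4, 3 and 1 UMIs, and in Random-14d 6 barcodes carried 23, 3, 1, 1, 1 and 1. The barcode with 90 UMIs held Trac, all 3 Cd3 genes, 2 UMIs of Cd8b1 and 104 of Ccl5. The barcode with 63 UMIs held 1 UMI of Cd3d, 0 of Cd8a and Cd8b1, 7 of Ncr1 and 4 of Klrb1c, both receptors of NK cells, and the Random-14d barcode with 23 UMIs held 6 of Ncr1. Barcodes with an Ncr1 or Klrb1c UMI numbered 16 in each library. They were 9.70% of CFC-14d T barcodes (5.64 to 15.3%) and 5.86% of Random-14d ones (3.39 to 9.34%), a larger share in CFC-14d with overlapping intervals. These barcodes held 87 of the 204 Gzma counts in CFC-14d and 28 of the 30 in Random-14d. Without them Gzma had 2 counts in Random-14d and a log2 ratio of 6.19 (4.62 to 9.57), while Ccl5 and Klrd1 were at 0.96 and 1.001. Companion genes of late effector cells were found in these 8 CFC-14d barcodes: S1pr5, a receptor for exit into the blood, in 4 of 8 against 4 of the other 157, and Klrg1 in 3 of 8 against 2 of 157. In Random-14d S1pr5 was in 2 of 6 against 2 of 267, and Klrg1 in 1 of 6 against 1 of 267. Of the 4 CFC-14d barcodes with both Gzma and S1pr5, 2 also held an Ncr1 or Klrb1c UMI. NK barcodes held Gzma at 6312 CPM in CFC-14d and 5387 CPM in Random-14d.

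Ccl5 was split by coreceptor transcripts. Cd8-only barcodes, 63 in CFC-14d and 84 in Random-14d, held 79.1% of the Ccl5 counts of CFC-14d T barcodes and 48.7% of those of Random-14d, while barcodes with neither coreceptor held 16.1% and 41.2%. Their Ccl5 level was 4651 CPM (4374 to 4942) in CFC-14d and 2022 CPM (1850 to 2206) in Random-14d. Cd4-only barcodes, 14 and 31, had 1580 and 1545 CPM of Ccl5, and barcodes with neither coreceptor had 706 and 809 CPM. Nkg7 in Cd8-only barcodes stood at 1475 CPM in CFC-14d and 1043 CPM in Random-14d, and Klrd1 at 382 and 236 CPM. Gzma in Cd8-only barcodes had 137 counts in CFC-14d and 2 in Random-14d. Whether these gaps differ between coreceptor classes was not tested, as there is 1 library per group.

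The wider list of cytotoxic and effector genes had a higher median than all genes, but members in both directions. Of its 21 genes 11 were measured, 7 of them higher and 4 lower in CFC-14d, with 4 past 1.5-fold higher and 1 past 1.5-fold lower, against 1.7% of all measured genes in each direction. The median log2 ratio was 0.43, against -0.01 over all measured genes. Gzmb, granzyme B, stood at 145 CPM in CFC-14d and 89.6 CPM in Random-14d (log2 ratio 0.69, 0.22 to 1.16). Barcodes with an Ncr1 or Klrb1c UMI held 59.8% and 69.7% of the Gzmb counts, and without them the log2 ratio was 1.15 (0.35 to 1.99). After thinning to 1000 UMIs Gzmb was found in 7.45% of CFC-14d and 2.95% of Random-14d T barcodes. It was also found more often in CFC-14d NK barcodes, at 60.3% (46.6 to 73.0%) against 33.3% (24.0 to 43.7%) in Random-14d ones. Fasl, the ligand of a death receptor, and Klrk1, the receptor NKG2D, each had a log2 ratio of 0.43. Below the count minimum, Gzmm had 29 counts in CFC-14d and 7 in Random-14d, and Tbx21, the factor T-bet of effector cells, 29 and 14. Prf1, perforin, stood at 35.3 CPM in CFC-14d and 31.8 CPM in Random-14d. Ifng, the cytokine interferon gamma, leaned the other way at 79.3 CPM in CFC-14d and 113 CPM in Random-14d (log2 ratio -0.50, -1.06 to 0.01). Without the 16 NK receptor barcodes of each library the list's median was 0.32, and without the barcodes of 5 or more UMIs of other lineages it was 0.57.

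Promoters of 3 of these genes are shown because granzyme and Nkg7 transcription in CD8 T cells is known to depend on RUNX and T-box factors. Each line gives the 250 bases before the start site, 5′ to 3′ on the gene's strand, from RefSeq on GRCm38.p6, with the RUNX core TGTGGT or its reverse complement ACCACA in capitals. The regions are chr13:113100982-113101231 on the minus strand for Gzma, chr14:56262335-56262584 on the minus strand for Gzmb and chr7:43436888-43437137 on the plus strand for Nkg7. The submitters' processing notes name GRCm39, so these coordinates belong to the sequence table and not to the counts.
Gzma: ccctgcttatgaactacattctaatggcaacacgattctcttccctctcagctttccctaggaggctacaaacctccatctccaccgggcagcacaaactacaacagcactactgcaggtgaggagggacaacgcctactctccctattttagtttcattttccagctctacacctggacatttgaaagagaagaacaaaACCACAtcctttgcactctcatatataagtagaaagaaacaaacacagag
Gzmb: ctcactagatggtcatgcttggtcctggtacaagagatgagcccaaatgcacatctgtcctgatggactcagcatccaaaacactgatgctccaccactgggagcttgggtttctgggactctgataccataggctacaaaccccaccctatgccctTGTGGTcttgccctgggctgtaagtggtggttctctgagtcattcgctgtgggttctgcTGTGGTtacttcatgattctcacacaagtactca
Nkg7: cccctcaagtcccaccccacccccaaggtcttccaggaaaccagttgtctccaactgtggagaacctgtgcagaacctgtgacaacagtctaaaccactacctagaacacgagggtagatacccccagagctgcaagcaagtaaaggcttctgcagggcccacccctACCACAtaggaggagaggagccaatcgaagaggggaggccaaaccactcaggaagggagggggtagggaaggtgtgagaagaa
The core lies 50 to 45 bases before the start of Gzma, 93 to 88 and 34 to 29 bases before that of Gzmb and 83 to 78 bases before that of Nkg7. Searched on both strands, it occurs in 14% of 32851 such windows. It was found in 9 of the 16 cytotoxic and effector genes with an entry (Ccl3, Cst7, Gzma, Gzmb, Gzmm, Klrc1, Klrk1, Nkg7 and Prf1) and in 0 of the 11 naive and central memory genes with one. A gene counted here if any window listed for it held the core, whereas the 14% is a share of single windows. The gene counts and that share are thus unlike measures, and enrichment was not tested. The T-box site GGTGTGA, present in 3.33% of windows, lies 13 to 7 bases before the start of Nkg7, and the AP-1 site TGANTCA, present in 6.75%, lies 58 to 52 bases before that of Gzmb. Ccl5, Klrd1 and Cd8b1 have no entry. A match is a run of letters and was not tested as a binding site.

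Among the lower genes Cd69 and Dapl1 stood far higher in T barcodes than in all other barcodes, whereas Ccl4 and Stmn1 had levels of the same order in the others. Ccl4, a chemokine of activated T and NK cells and of microglia, stood at 130 CPM (102 to 164) in CFC-14d and 249 CPM (216 to 285) in Random-14d, a log2 ratio of -0.92 (-1.33 to -0.54). NK barcodes held Ccl4 at 1322 CPM in CFC-14d and 1980 CPM in Random-14d, and all other barcodes at 199 and 271 CPM, so it was lower in CFC-14d there too. Cd69, an early activation antigen that also keeps T cells in tissue, stood at 153 CPM (123 to 189) in CFC-14d and 251 CPM (218 to 287) in Random-14d. Its log2 ratio was -0.71 (-1.09 to -0.34). Cd69 was found in 58 CFC-14d and 104 Random-14d barcodes, shares of 35.2% and 38.1%. After thinning to 1000 UMIs it was found in 19.9% of CFC-14d and 22.1% of Random-14d T barcodes. The thinned shares were 34.2% and 33.7% in B barcodes and 1.72% and 11.5% in NK barcodes. The Cd69 level was lower in Cd8-only barcodes, at 191 CPM in CFC-14d and 380 CPM in Random-14d, while Cd4-only barcodes had 272 and 193 CPM from 11 and 13 counts. With each barcode weighted equally the log2 ratio of Cd69 was -0.48, under 1.5-fold, and without the barcodes of other lineages it was -0.45.

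Dapl1, a gene of naive and early memory T cells in the mouse, stood at 81.1 CPM in CFC-14d and 137 CPM in Random-14d (log2 ratio -0.74, -1.28 to -0.25) and had 0 counts in NK barcodes. Stmn1, a regulator of microtubules that rises in dividing cells, stood at 123 CPM in CFC-14d and 226 CPM in Random-14d (-0.87, -1.29 to -0.47), with 31.4% of its CFC-14d counts in 1 barcode. All other barcodes held Stmn1 at 176 and 182 CPM. The linker histone H1f5 had 84.4% of its 32 CFC-14d counts in 1 barcode, and without the deepest 8% of barcodes its log2 ratio was 2.31 in place of -1.06, and without the top barcode of each library it was -3.06. All 5 measured cell cycle genes were lower in CFC-14d, 2 of them past 1.5-fold, with a median log2 ratio of -0.19, where 995 of all 1942 genes were lower, 1.7% were past 1.5-fold lower and the median was -0.01. Without those deepest barcodes that median was 0.20. Mki67, a marker of dividing cells, was found in 3 CFC-14d and 6 Random-14d T barcodes.

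**Figure D4:**
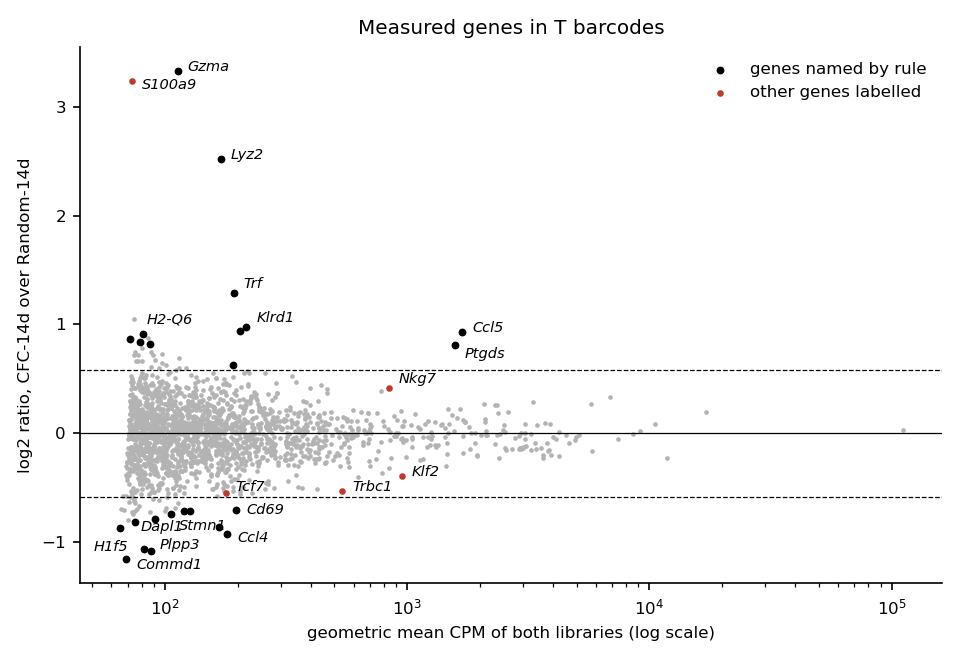
Log2 ratio of CFC-14d over Random-14d for 1942 genes in T barcodes (vertical) against the geometric mean of their CPM in both libraries (horizontal, log scale). Black points are genes named by rule, red points other genes that the text describes, and dashed lines mark 1.5-fold. Most genes lie between the dashed lines, and Ccl5 and Ptgds are the highest-level genes above the upper one.

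Other named genes belong to other cells or to general cell functions. Lyz2, lysozyme of myeloid cells, had 232 counts in CFC-14d and 60 in Random-14d (log2 ratio 2.52), with 77.6% of the CFC-14d counts in 1 barcode and a log2 ratio of -0.035 without the barcodes of other lineages. Vtn, vitronectin, a gene of brain pericytes, was at 0.94 and at -0.13 without those barcodes. Ptgds, prostaglandin D synthase of the meninges and choroid plexus, was at 0.81, with 43.4% of its CFC-14d counts in 1 barcode and a log2 ratio of 0.24 without the top barcode of each library. Trf, transferrin, was at 1.29 and at 0.68 without the barcodes of other lineages, and Scd2, a fatty acid desaturase, at 0.82 and 0.20. Cmpk1, Cab39 and Cops9, of nucleotide synthesis, kinase signalling and the COP9 signalosome, had log2 ratios of 0.87, 0.84 and 0.62. Among lower genes, Commd1 (copper handling and protein sorting) was at -1.16, Plpp3 (a lipid phosphatase) at -1.08 and Ssbp2 (a transcriptional cofactor) at -0.88. Mrpl24 (mitochondrial ribosome) was at -0.81, Exoc3 (exocyst) at -0.79, Esd (an esterase) at -0.72 and the linker histone H1f4 at -0.71.

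Genes of naive and central memory T cells leaned lower in CFC-14d, with values within 1.5-fold for all but Dapl1. Of 14 genes 10 were measured, 3 higher and 7 lower, with a median log2 ratio of -0.11 against -0.01 over all genes. Among all 1942 measured genes 947 were higher and 995 lower, and 1.7% were past 1.5-fold lower. Tcf7, the factor TCF1 of naive and memory T cells, stood at 146 CPM in CFC-14d and 216 CPM in Random-14d (log2 ratio -0.55, -0.95 to -0.18) and was found in 51 and 108 barcodes. After thinning, 15.53% of CFC-14d T barcodes (10.3 to 22.1%) and 24.7% of Random-14d ones (19.7 to 30.3%) held a Tcf7 UMI, against 5.34% and 5.97% of endothelial-marker barcodes. Klf2, which drives genes for recirculation, stood at 825 CPM (752 to 903) in CFC-14d and 1086 CPM (1017 to 1159) in Random-14d, a log2 ratio of -0.40 (-0.56 to -0.23). In NK barcodes Klf2 was at 1237 and 1213 CPM. Lef1, a factor related to TCF1, had a log2 ratio of -0.30. At 1000 UMIs it was found in 19.3% of CFC-14d and 26.6% of Random-14d T barcodes, but at 2000 UMIs in 34.5% and 33.1%. Endothelial-marker barcodes held it more often, and less so in CFC-14d too, at 26.3% and 33.4% at 1000 UMIs. The homing receptor Ccr7 was at -0.06 and the exit receptor S1pr1 at -0.16.

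**Figure D5:**
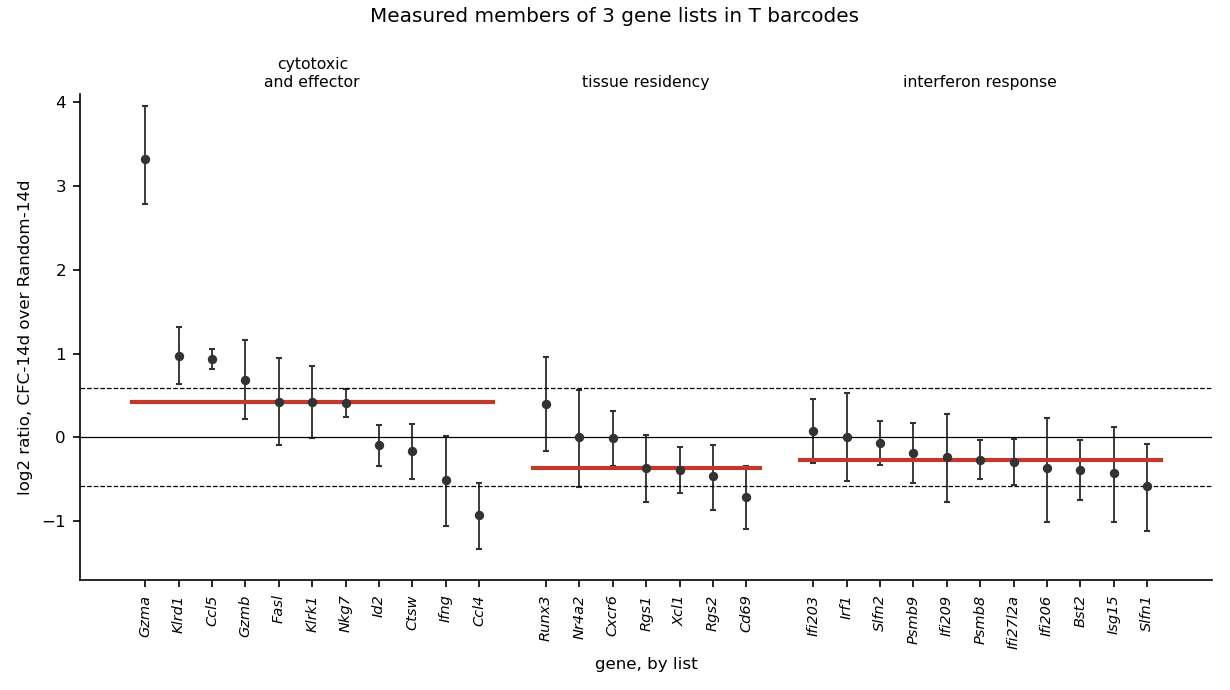
Log2 ratio of CFC-14d over Random-14d in T barcodes for each measured gene of 3 lists, with 95% counting intervals as whiskers, the list's median as a red line and 1.5-fold as dashed lines. The cytotoxic and effector median is 0.43, and those of the residency and interferon lists are -0.36 and -0.26.

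Tissue residency genes had a median below that of all genes. Of 15 genes 7 were measured, 2 higher and 5 lower, with Cd69 past 1.5-fold and a median log2 ratio of -0.36, where 995 of all 1942 genes were lower and 1.7% were past 1.5-fold lower. Their sum was 1409 CPM in CFC-14d and 1637 CPM in Random-14d T barcodes, and it was lower in CFC-14d in NK barcodes (1781 and 2928 CPM) and in all other barcodes (475 and 576 CPM) too. Xcl1, a chemokine that attracts cross-presenting dendritic cells, stood at 305 CPM in CFC-14d and 398 CPM in Random-14d T barcodes (log2 ratio -0.38, -0.66 to -0.12) and at 759 and 1359 CPM in NK barcodes. Rgs1 and Rgs2, which dampen chemokine receptor signals, had log2 ratios of -0.36 and -0.46, and in NK barcodes -0.78 and -0.51. Cxcr6 was at -0.01 and Runx3, a factor of CD8 and resident T cells, at 0.40 (-0.16 to 0.96). Itgae, the CD103 chain of resident cells, had 5 counts in CFC-14d and 12 in Random-14d. Detection of the integrin gene Itga1 leaned the other way, with overlapping intervals. At 1000 UMIs it was found in 9.94% of CFC-14d and 6.27% of Random-14d T barcodes, and at 2000 in 11.2% and 8.92%. At 1000 UMIs endothelial-marker barcodes of both libraries held Itga1 more often than T barcodes did. Cxcr6 was found in 25.5% and 19.6% of T barcodes at 1000 UMIs, but in 27.6% and 28.0% at 2000.

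Interferon response genes were slightly lower in CFC-14d T barcodes. Of all 1942 measured genes 995 were lower and 1.7% were past 1.5-fold lower, with a median log2 ratio of -0.01. Of the 39 interferon response genes 11 were measured, 2 higher and 9 lower, 0 of them past 1.5-fold, with a median of -0.26. Their sum, which includes the genes below the count minimum, was 2775 CPM in CFC-14d and 3237 CPM in Random-14d, against 787 and 705 CPM in all other barcodes, where it was higher in CFC-14d. In NK barcodes the sum was lower in CFC-14d as well, at 1551 and 2310 CPM. Slfn1, a schlafen gene of resting T cells, stood at 82.9 and 125 CPM (log2 ratio -0.58), Bst2, tetherin, at 176 and 231 CPM (-0.39), and Psmb8, an immunoproteasome subunit, at 421 and 507 CPM (-0.26). B2m, the light chain of MHC class I, stood at 1807 CPM in CFC-14d and 2074 CPM in Random-14d (-0.20, -0.31 to -0.09). Of the 11 measured MHC class I genes 5 were higher and 6 lower.

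Over the list of chemokine receptors and trafficking genes 8 of 13 measured genes were higher and 5 lower, 0 past 1.5-fold, with a median of 0.05. Of all 1942 measured genes 947 were higher and 995 lower, with 1.7% past 1.5-fold in each direction and a median of -0.01. The highest ratio of the list was that of Itga4, the alpha chain of the integrin VLA-4 that binds inflamed vessels, at 266 CPM in CFC-14d and 179 CPM in Random-14d (log2 ratio 0.57, 0.24 to 0.91). Its partner Itgb1 stood at 457 and 342 CPM (0.42, 0.17 to 0.66) and Itgal, a chain of LFA-1, at 106 and 73.1 CPM (0.53, -0.00 to 1.07). Il2rb, a receptor chain for IL-2 and IL-15, stood at 127 CPM in CFC-14d and 86.0 CPM in Random-14d (0.56, 0.07 to 1.05), and the 6 measured cytokine receptors had a median of 0.21. Ctla4, an inhibitory receptor, stood at 59.95 and 97.8 CPM (-0.69, -1.33 to -0.11), and Maf, a transcription factor of several T cell subsets, at 100.5 and 63.6 CPM (0.66, 0.10 to 1.22).

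Many other lists lay near the median of all genes. The 11 measured genes of T cell receptor signalling had a median log2 ratio of -0.01, with 5 higher and 6 lower. The 14 measured identity genes had a median of -0.02, with Cd226 highest at 0.50 and Cd5 lowest. Glucocorticoid response genes had a median of 0.10, with Zfp36l2 at 0.55 and Tsc22d3, a classic target, at -0.00. Immediate early and activation genes had a median of -0.03, with Fos at -0.41 in T barcodes and -0.90 in NK barcodes. Survival genes had a median of 0.08, heat shock genes -0.00, glycolysis genes 0.04 and cytoskeletal genes 0.02.

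Cytokine transcripts were rare at this depth, and 9 of the 25 cytokine genes were at 0 in the T barcodes of each library. Il3, which the series title names, had 0 counts in both, a count that leaves room for 5.29 CPM in CFC-14d and 3.54 CPM in Random-14d. Csf2, the related cytokine GM-CSF, had 3 counts in each library. The receptor genes gave 0 and 4 counts for Il3ra, 2 and 1 for Csf2rb and 0 and 1 for Csf2rb2 in CFC-14d and Random-14d, so no difference in them was detectable in T barcodes. Il17a was at 0 in both, Il2 had 8 and 11 counts, and Tnf 13 and 33.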

How the data were processed

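UMI counts per gene and barcode were deposited by the authors as one filtered 10x matrix per library. Per the submitters' processing notes they used Cell Ranger 8.0.1, Seurat 5.4.0, GRCm39 and mm39; which gene annotation they used is not stated there. Nothing in the files shows further normalization. The members and gene lists were chosen with earlier results of these data known.

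Counts were summed over T barcodes per library and divided by their total UMIs (CPM), with exact Poisson 95% intervals. Log2 ratios used 0.5 added counts and a conditional exact binomial interval; genes with at least 100 counts over both libraries were measured, and a ratio past 1.5-fold was counted. Shares have exact binomial intervals. Thinning was 1 random draw per barcode, with a fixed seed. PCR duplicates are collapsed by the UMIs, and intervals and floors (3 counts) cover counting error only.

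Genes were named by a rule: up to 12 per direction by the interval bound nearest to 0, past 1.5-fold, with CPM in T barcodes at least 0.5 times that in all others, without unnamed gene models and mitochondrial, ribosomal, haemoglobin, immunoglobulin and sex-linked genes. Genes of the lists and the IL-3 and GM-CSF genes could be named too. Of the 66 genes past 1.5-fold, 30 higher and 32 lower ones met the rule for naming.

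No doublet caller was run; barcodes of high depth and of other lineages were left out as alternatives. Groups followed the library names in the labels, with 1 library each and no test between groups. The scripts were tested on simulated data. Alternatives changed the depth minimum, the number of T genes, the mitochondrial limit, the deepest barcodes, the scaling, the weighting, the subset, the added counts and the count minimum. Some marker genes are not reported here. Promoters came from a RefSeq table on GRCm38.p6, matched by symbol. Python 3.11.15, numpy 2.4.6, scipy 1.17.1, pandas 2.3.3 and matplotlib 3.10.9 were used.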

Additional observations from a re-analysis of the deposited data

How the results depend on the processing

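No paired analysis was possible because each group had 1 library, and no replicate could be left out. Excluding more genes of other lineages left 0 T barcodes, through its limit on Ttr, and gave no value. In its place, alternatives chosen after seeing the data left out barcodes with 5 or more UMIs of another lineage gene or with an NK receptor UMI, left out the top barcode of each library per gene and took barcodes with a Ptprc UMI as the denominator. Over the planned settings and these added ones, the log2 ratio of the T share lay between -0.72 and -0.99, the latter with 3 of 5 T genes. That range holds for all barcodes or those with a Ptprc UMI as the denominator. Among T, NK and B barcodes the log2 ratio was 0.01.

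The shares themselves depended on the rule. With 1000 UMIs and 500 genes they were 0.676% in CFC-14d and 1.16% in Random-14d; with 3 of 5 T genes 0.424% in CFC-14d; without the barcodes of other lineages 0.421% in CFC-14d and 0.802% in Random-14d. In Random-14d the Cd4-only share was 11.4% and the Cd8-only share 30.8% without thinning, and the Cd8-only share was 34.4% at 2000 UMIs.

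The 33 higher and 33 lower genes became 50 lower with 3 of 5 T genes, 82 higher and 68 lower with barcodes weighted equally, 5 and 14 in Cd4-only barcodes, 18 lower in Cd8-only barcodes, 8 and 3 at a minimum of 200 counts and 611 and 667 at 20 counts. The number of measured genes changed too. Genes past 1.5-fold were 3.4% of 1942 at first, 4.77% of 1697 with 3 of 5 T genes and 7.72% with equal weights. They were 14.7% of 129 in Cd4-only and 7.99% of 576 in Cd8-only barcodes. At 200 counts they were 1.19% of 925, and at 20 counts 17.5% of 7292. Without the 8% deepest barcodes 11 of the 33 higher and 8 of the 33 lower genes were counted again, and without the barcodes of other lineages 6 and 8. Reversed log2 ratios were 2.31 for H1f5 and 0.10 for H1f4 without the 8% deepest barcodes; -0.035 for Lyz2 and -0.13 for Vtn without the barcodes of other lineages; 0.50 for Cd69 in Cd4-only barcodes; and 2.27 for Plpp3, -0.49 for Lyz2, 3.23 for H1f5 and 0.42 for H1f4 in Cd8-only barcodes. The cause was not tested. Ccl5 lay between 0.86 and 1.20 in all settings but Cd4-only barcodes (0.04), and Klrd1 from 0.69 upwards, to 1.099. Depth limits genes of few counts: 3 counts were 5.29 CPM in CFC-14d and 3.54 CPM in Random-14d.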
